A study of Homo sapiens with 12 samples.

Results

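Ultraviolet A (UVA) light given alone was compared with no treatment in HAP1 cells by ribosome profiling. The comparison used 6 of the 12 libraries in the study, 3 from cells exposed to UVA and 3 from untreated cells. Of 19580 genes in the deposited table, 10977 had at least 1 RPKM (reads scaled to transcript length and to the reads of the library) in 3 or more of these 6 libraries and were tested. With UVA alone 31 genes rose and 43 fell at an adjusted p under 0.05 (limma), which is 0.282% and 0.392% of the genes tested. The genes that rose were led by stress-induced growth regulators such as PLK2, GADD45A, FBXW7 and BTG2, and 40 of the 43 genes that fell encode replication-dependent histones.

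All cells were wild-type HAP1, a human line with a nearly haploid genome that descends from KBM-7 leukaemia cells. Untreated cells received neither agent, and the UVA group received 6 kJ per square metre of UVA and was harvested after 30 min. The remaining groups, 3 libraries each, received 4-thiouridine (4SU) at 5 uM for 18 h, alone or followed by the same UVA dose; 4SU is a uridine analogue that cells build into new RNA and that UVA can crosslink. Whether untreated cells went through the same handling and 30 min recovery is not given in the sources used here, so effects of light and of handling cannot be told apart. The labels give the same protocol text for every library, so each group was taken from its treatment label, and dose and recovery of the UVA group from that shared text. In ribosome profiling, RNase I digests mRNA outside ribosomes and the protected fragments, called footprints, are sequenced. A footprint level therefore follows both the amount of an mRNA and how many ribosomes sit on it. No matched RNA library was analysed here, so these 2 parts cannot be told apart.

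Libraries held between 3358145 and 5832366 reads in the 6 libraries compared, and between 1899854 and 5526950 in the 4SU groups. Within a group, pairs of replicates correlated at 0.98 or above on the log2 scale across genes. The labels call the replicates biological but name no separate cultures, so p-values measure the spread between these libraries. The median log2 level over the genes tested was 3.50 to 3.52 in untreated and 3.57 to 3.58 in UVA libraries. Of 13 blood cell markers, only GATA2, KIT and TAL1 passed the filter on low values, and the pan-leukocyte marker PTPRC and the myeloid markers SPI1, MPO and LYZ were at 0 in both groups. Their summed level was 20.9 to 25.3 RPKM in untreated and 26.8 to 29.9 RPKM in UVA libraries. The summed level of 6 epithelial markers was 27.5 to 29.6 RPKM in untreated and 26.6 to 29.8 RPKM in UVA libraries, with KRT19 at 0. That of 8 fibroblast markers was 1082 to 1108 against 1037 to 1115 RPKM, nearly all of it vimentin, with DCN at 0. No member of these marker lists passed the test.

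The table lists Ensembl identifiers without gene symbols, and the RefSeq gene table used here pairs 0 genes with Ensembl identifiers. The symbols below were assigned from general knowledge of the Ensembl catalogue, those of the changed genes after their values had been seen. One check was available for genes without introns. For these the transcript length recovered from the RPKM values should equal the RefSeq gene length (GRCh38.p14), and it did so exactly for 49 of 62 replication-dependent histones with a read and for 30 of the 74 changed genes. It cannot be made for spliced genes such as PLK2, so each symbol is printed with its identifier where a gene is first described.

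Replication-dependent histones package newly copied DNA. Their genes lie in clusters, have no introns, and are transcribed mainly in S phase; their mRNAs end in a stem-loop instead of a poly(A) tail and are degraded when DNA synthesis stops. Variant histones such as H2AZ1 and H3-3B are made from polyadenylated mRNAs throughout the cell cycle, whereas H2AX has an mRNA of each kind. Among the genes that rose are known targets of the tumour suppressor p53 and immediate early genes, whose transcription cells switch on within minutes of a stimulus; mRNAs of the latter are typically short-lived.

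Promoter sequences from RefSeq (GRCh38.p14) are shown for both directions of change, because shared elements are part of how these gene families are known to be controlled. For H2B genes the octamer ATTTGCAT, the site of the transcription factor Oct-1, is the classical element. Of the 40 falling histone genes, 38 had a promoter in the table. The lines below give the 80 bases before the annotated start of 4 H2B genes that fell, in 5′ to 3′ direction on the gene's strand, with the octamer and the TATA box TATAAA in capitals.
H2BC8, chr6:26216689-26216768, minus strand: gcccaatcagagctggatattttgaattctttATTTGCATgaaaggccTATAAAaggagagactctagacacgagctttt
H2BC11, chr6:27132796-27132875, minus strand: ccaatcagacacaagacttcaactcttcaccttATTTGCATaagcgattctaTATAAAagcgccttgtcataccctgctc
H2BC10, chr6:26272851-26272930, plus strand: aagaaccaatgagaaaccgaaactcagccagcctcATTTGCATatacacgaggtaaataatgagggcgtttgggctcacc
H2BC18, chr1:149812371-149812450, minus strand: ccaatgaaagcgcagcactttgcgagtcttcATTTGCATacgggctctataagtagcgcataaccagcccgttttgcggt
The octamer begins 48, 47, 45 and 49 bases before the start in these 4 promoters. Over windows of 300 bases, 250 before and 50 after the start, and on both strands, the octamer was found in 20 of the 41 promoters of falling histones (48.8%) and in 1.77% of the 35116 promoters in the table. It was present in 11 of 15 H2B and 8 of 10 H2A promoters and in 0 of 6 H4 promoters. Some H2A and H2B genes are close neighbours, such as H2BC11 (chromosome 6, 27132316 to 27132795) and H2AC11 (27133043 to 27133535). Where the windows of such neighbours overlap, the same octamer can count for both, so these counts may include shared sites. TATAAA was found in 63.4% of the falling histones' promoters against 11.5% of all, and CCAAT in 87.8% against 34.6%. Promoters of the cluster histones that were tested and did not pass held the octamer in 6 of 13 cases, a like share.

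For the genes that rose, 24 of 31 had a promoter in the table, with 31 starts in all. Of these, 0 held the octamer and 5 held TATAAA (16.1%). The cyclic AMP response element TGACGTCA, a site of the ATF and CREB factors, was found in 2 of 31 (6.45%) against 1.85% of all promoters. It was also in 12.2% of the falling histones' promoters and in 4.13% of those of other tested genes with a symbol. The AP-1 core TGANTCA, N being any base, was in 0 of 31 against 7.71% of all. A full p53 element was in 0 of 31 windows against 0.0285% of all, a share so low that 0 of 31 says nothing about these genes. A p53 half-site was in 9.68% against 6.63%. TGACGTCA is in capitals in the 80 bases before the start of PPM1D and of ZFP36L1. PPM1D encodes a phosphatase that shuts off p53 signalling, and ZFP36L1 a protein that destabilises AU-rich mRNAs.
PPM1D, chr17:60600113-60600192, plus strand: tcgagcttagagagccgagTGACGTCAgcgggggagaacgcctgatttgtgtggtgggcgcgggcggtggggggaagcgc
ZFP36L1, chr14:68793417-68793496, minus strand: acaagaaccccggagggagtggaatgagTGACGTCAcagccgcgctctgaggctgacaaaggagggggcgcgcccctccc
These matches describe the letters only and were not tested for binding.

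The rises were few and reached 6.88-fold. Of the 31 genes, 13 rose by more than 2-fold, and for all 31 every UVA library lay above every untreated library. Over all genes tested that order was seen in 13.1%. The 31 were chosen by a test on these same libraries, which favours that order, so it is no separate support. These genes together took 0.105% ± 0.0078 (SD, n = 3) of the reads in untreated and 0.193% ± 0.026 (SD, n = 3) in UVA libraries. Because the genes were chosen for being higher with UVA in these same libraries, the choice set the direction of this sum. It also favours a larger difference, so the sum is a description only. Values below are RPKM in replicates 1, 2 and 3, followed by the log2 change on the log2(RPKM + 0.5) scale with its standard error and limma's adjusted p.

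Among genes at a mean of at least 5 RPKM, the largest rises were those of PLK2, GADD45A, FBXW7 and BTG2. The groups in which rising genes are given were formed after their values were seen and were not tested. PLK2 (ENSG00000145632, chromosome 5, 58453982 to 58460086) encodes a polo-like kinase induced by p53. It stood at 3.22, 3.54 and 1.97 RPKM in untreated and at 27.7, 30.2 and 13.5 RPKM in UVA libraries, a log2 change of 2.78 ± 0.25 (adjusted p = 4.4e-05). Every UVA library was several times above the highest untreated one. GADD45A (ENSG00000116717, chromosome 1, 67685201 to 67688334) encodes a small stress sensor that activates p38 and JNK signalling. It went from 11.6, 8.49 and 6.59 RPKM to 58.8, 48.2 and 22.6 RPKM, a log2 change of 2.15 ± 0.29 (adjusted p = 0.00092). FBXW7 (ENSG00000109670, chromosome 4, 152320544 to 152536092) encodes the substrate receptor of a ubiquitin ligase that marks cyclin E, MYC and JUN for destruction. Its level was 7.71, 8.46 and 4.78 RPKM untreated against 30.6, 30.1 and 18.9 RPKM with UVA, a log2 change of 1.86 ± 0.22 (adjusted p = 0.0004). BTG2 (ENSG00000159388, chromosome 1, 203305519 to 203309602) encodes an antiproliferative partner of the CCR4-NOT deadenylase. It stood at 18.1, 19.7 and 12.9 RPKM untreated and 68.5, 64.9 and 35.2 RPKM with UVA, a log2 change of 1.67 ± 0.22 (adjusted p = 0.00071). In each of these 4 genes replicate 3 was the lowest library in both groups.

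PHLDA3, SESN2, BTG1, TNFRSF10D, PPM1D and AEN, also known to be induced by p53, rose by less. PHLDA3 (ENSG00000174307), an inhibitor of AKT signalling, was at 11.7, 11.9 and 7.61 RPKM untreated and at 29.4, 30.0 and 21.8 RPKM with UVA (log2 change 1.35 ± 0.22). SESN2 (ENSG00000130766), a sestrin that restrains mTORC1, was at 19.1, 19.4 and 14.1 RPKM untreated and at 36.8, 41.6 and 30.3 RPKM with UVA (log2 change 1.03 ± 0.16). BTG1 (ENSG00000133639), the close relative of BTG2, rose by 0.92 ± 0.14. The groups did not overlap in any of the 3 genes. TNFRSF10D (ENSG00000173530), a decoy receptor for the death ligand TRAIL, rose from 5.23, 4.45 and 4.07 RPKM to 14.3, 11.6 and 8.03 RPKM. PPM1D (ENSG00000170836) rose by 0.76 ± 0.15 and AEN (ENSG00000181026), a p53-induced nuclease, by 0.41 ± 0.07. AEN was the most densely read of the rising genes, with 4049 reads in the untreated and 4857 in the UVA libraries. AKT2 (ENSG00000105221), a kinase of the insulin pathway, rose by 0.48 ± 0.10.

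**Figure D1:**
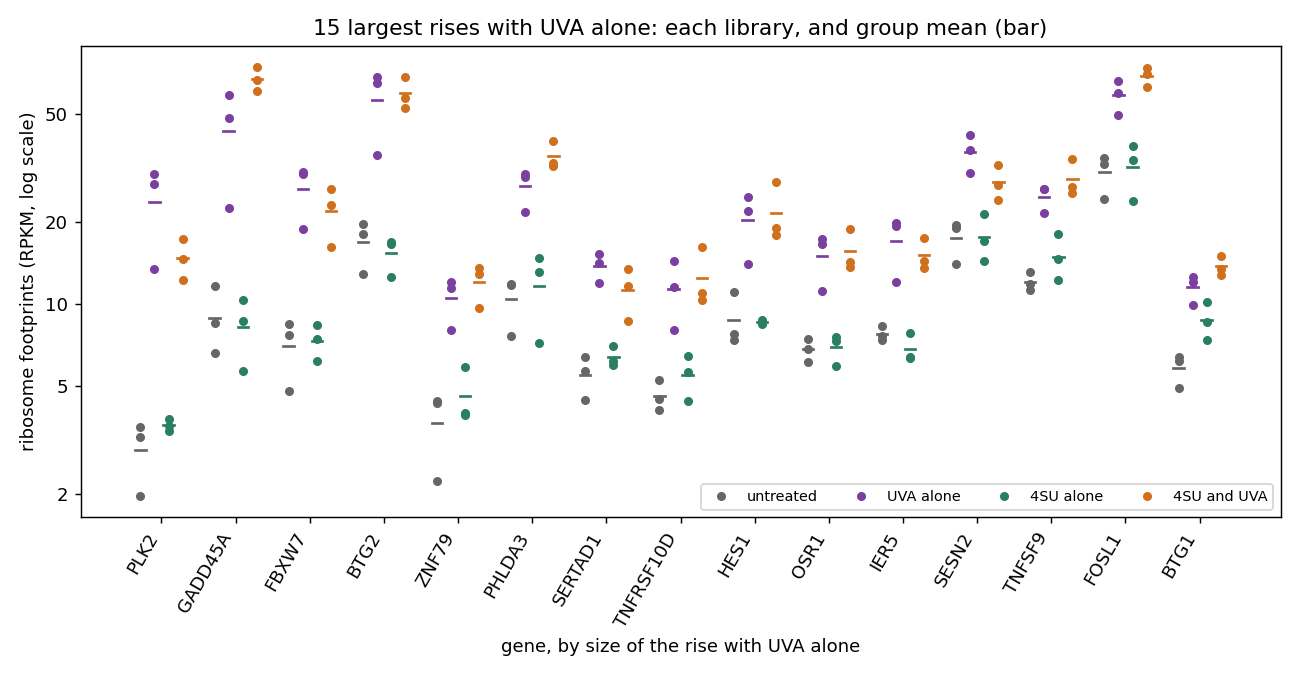
Ribosome footprints of the 15 genes with the largest rises with UVA alone among those at a mean of at least 5 RPKM, in all 4 groups. Each point is 1 library, bars are group means of 3 libraries, and the vertical axis is RPKM on a log scale. All 3 UVA libraries lie above all 3 untreated libraries for each gene, and PLK2 goes from 1.97 to 3.54 RPKM up to 13.5 to 30.2 RPKM.

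Transcription regulators that rose include FOSL1, HES1 and IER5. FOSL1 (ENSG00000175592), the Fra-1 subunit of the AP-1 factor, was at 32.6, 34.4 and 24.3 RPKM untreated and at 66.0, 59.9 and 49.5 RPKM with UVA (log2 change 0.94 ± 0.16). HES1 (ENSG00000114315), a repressor downstream of Notch, was at 11.1, 7.34 and 7.73 RPKM untreated and at 24.8, 22.0 and 14 RPKM with UVA (log2 change 1.16 ± 0.20). IER5 (ENSG00000162783), an immediate early protein that acts on the heat shock factor HSF1, rose from 7.36, 8.25 and 7.59 RPKM to 19.9, 19.3 and 12.1 RPKM. The lowest UVA library exceeded the highest untreated one for each of them. SERTAD1 (ENSG00000197019), a coactivator of E2F and CDK4, rose by 1.26 ± 0.16. The zinc finger factors OSR1 (ENSG00000143867) and ZNF79 (ENSG00000196152) rose by 1.07 ± 0.17 and 1.44 ± 0.23. ATF3 (ENSG00000162772), a stress-induced bZIP repressor, rose by 0.89 ± 0.16. KLF2 (ENSG00000127528), a Krüppel-like factor, rose by 0.58 ± 0.12. ID2 (ENSG00000115738), an inhibitor of helix-loop-helix factors, and ZNF579 (ENSG00000218891) rose by 0.51 ± 0.11 and 0.54 ± 0.10.

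The remaining rising genes act elsewhere in the cell. TNFSF9 (ENSG00000125657), the ligand of the costimulatory receptor 4-1BB, was at 11.8, 13.1 and 11.2 RPKM untreated and at 26.4, 26.4 and 21.6 RPKM with UVA (log2 change 1.01 ± 0.14). NFKBIA (ENSG00000100906), the inhibitor of NF-kappaB, was at 31.9, 31.1 and 37.2 RPKM untreated and at 49.9, 45.8 and 45.9 RPKM with UVA (log2 change 0.50 ± 0.09). FTH1 (ENSG00000167996), the iron-storing ferritin heavy chain, was at 25.6, 21.4 and 19.3 RPKM untreated and at 28.9, 30.4 and 33.9 RPKM with UVA (log2 change 0.49 ± 0.10). All 3 passed the test with changes well under that of PLK2. SLC30A1 (ENSG00000170385), a zinc exporter, rose by 0.66 ± 0.13. ZFP36L1 (ENSG00000185650) rose by 0.63 ± 0.12, and CLP1 (ENSG00000172409), an RNA kinase of 3′-end and tRNA processing, by 0.43 ± 0.09. PDXP (ENSG00000241360), A4GALT (ENSG00000128274), PIP4P1 (ENSG00000165782) and EFHD1 (ENSG00000115468), which encode a pyridoxal phosphatase, a glycosyltransferase, a lipid phosphatase and a calcium-binding mitochondrial protein, rose by 0.72, 0.61, 0.57 and 0.56.

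UVA replicate 3 was the lowest UVA library in 23 of the 31 rising genes. The median rise over the untreated mean was 0.99 in UVA replicate 1, 0.87 in replicate 2 and 0.68 in replicate 3 on the log2 scale. Untreated replicate 3 was the lowest untreated library in 17 of the 31. The count of 31 fell to 15 without UVA replicate 1, to 17 without UVA replicate 2 and to 19 without untreated replicate 3, and was 30 without UVA replicate 3, of which 22 were among the 31.

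The spread between libraries also set which stress genes passed. CDKN1A (ENSG00000124762), the p53-induced cyclin-dependent kinase inhibitor p21, was at 34.7, 37.8 and 14.4 RPKM untreated and at 113, 127 and 43.9 RPKM with UVA. The log2 change was 1.67 ± 0.46 and the adjusted p 0.19 in limma, although every UVA library exceeded every untreated one. GDF15 (ENSG00000130513), a secreted stress cytokine picked out after its values were seen, was at 8.37, 5.05 and 0.572 RPKM untreated and at 44.9, 43.2 and 8.49 RPKM with UVA (log2 change 2.80 ± 0.68, limma adjusted p = 0.10). In both genes replicate 3 was by far the lowest library of each group. CDKN1A passed with the replicate number as a block (adjusted p = 0.012 in limma), with voom on recovered reads (limma adjusted p = 0.0021) and without UVA replicate 3 (limma adjusted p = 0.045). GDF15 passed in the same settings (limma adjusted p = 0.0066, 0.017 and 0.015) and without untreated replicate 1.

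The listed stress pathways differed in how many genes passed. Of 34 immediate early and serum response genes 29 were tested and 8 rose, against 0.282% of all genes, with a median log2 change of 0.37 beside 0.05 for all genes tested. The 8 were GADD45A, BTG2, IER5, FOSL1, BTG1, ATF3, ZFP36L1 and KLF2, and 0 fell; the count was 4 or 5 without UVA replicate 1 or 2 or untreated replicate 2 or 3. The best known members of this list were not among them. EGR1 (ENSG00000120738), the zinc finger factor of the serum response, was at 3.03, 3.87 and 3.66 RPKM untreated and at 5.32, 4.17 and 4.84 RPKM with UVA (log2 change 0.39, limma adjusted p = 0.57). JUN (ENSG00000177606), a core AP-1 subunit, was at 6.49, 5.00 and 6.63 RPKM untreated and at 12.3, 9.96 and 9.25 RPKM with UVA (log2 change 0.75, limma adjusted p = 0.082). Both had groups that did not overlap. FOS (ENSG00000170345) was at 0.628, 2.52 and 1.22 RPKM untreated and at 1.84, 2.01 and 1.65 RPKM with UVA, which overlap. Several listed genes, such as GADD45A and BTG2, are also p53 targets, so the lists are not separate pathways.

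Of 31 p53 targets and repair genes of ultraviolet damage 30 were tested and 1 rose, PHLDA3, against 0.282% of all genes, while 0 fell. This list does not hold PLK2, GADD45A, BTG2, SESN2, BTG1, TNFRSF10D, PPM1D or AEN. They rose and are described above as p53 targets, so the count does not cover all such targets. The median log2 change was 0.14. The count depended on the setting: it was 3 with the replicate block (PHLDA3, BBC3 and CDKN1A), 6 with voom on recovered reads and 0 without a variance trend. It was 2 without untreated replicate 2, UVA replicate 3 or replicate 2 of 4SU with UVA, and 3 without 4SU replicate 3. The next members by p were BBC3, a death-inducing BH3 protein, at 1.25 (limma adjusted p = 0.089), the kinase PLK3 at 0.98 (limma adjusted p = 0.09) and the replication clamp PCNA at 0.24 (limma adjusted p = 0.095). Of 27 genes of the integrated stress response tested, which follows phosphorylation of the initiation factor eIF2, 1 rose, SESN2; PPP1R15A, which reverses that phosphorylation, was at 0.56 (limma adjusted p = 0.051). Of 24 antioxidant targets of NRF2 and ferritin genes 1 rose, FTH1, and the light chain gene FTL was at 0.41 (limma adjusted p = 0.20). HMOX1, heme oxygenase 1, was at 0.34 (limma adjusted p = 0.53). None of 12 feedback inhibitors of MAP kinases, 21 heat shock chaperones or 21 mitotic regulators passed in limma at adjusted p under 0.05, and their medians were 0.12, 0.04 and 0.03. DUSP1, a phosphatase of p38 and JNK, had the lowest p of the feedback inhibitors (log2 change 0.52, limma adjusted p = 0.10).

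Falls were smaller than rises and lay almost wholly in the replication-dependent histones. Of 66 such genes listed, 56 were tested, 40 fell and 0 rose, against 0.392% of all genes that fell; with quantile normalisation 18 of the 40 still passed, 3 were at exactly 0 and 5 turned to positive values. The median log2 change of the 56 was -0.42. The grouping was made after the falling genes had been seen, so the count is a description and was given no test of its own. For all 43 falling genes every UVA library lay below every untreated one, an order seen in 4.0% of all genes tested. The test that chose the 43 favours that order, so it is no separate support. By RefSeq, 32 of the 40 lie on chromosome 6, 7 on chromosome 1 and 1 on chromosome 12.

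Histone genes with many footprints fell almost without exception. Of the 40 at a mean of 50 RPKM or more, 39 fell, and the remaining one, H4C3 (ENSG00000197061), was at 5589, 5742 and 5596 RPKM untreated and at 5062, 4896 and 4900 RPKM with UVA (log2 change -0.19, limma adjusted p = 0.25). Of the 16 tested below 50 RPKM 1 fell, H2BC9 (ENSG00000275713), which had 24 reads over the untreated libraries and 8 over the UVA libraries. Its fall by 1.33 on the log2 scale is the only one beyond 2-fold.

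H2A and H2B, which pair as dimers in the nucleosome, supplied most of the larger falls. H2AC15 (ENSG00000275221, chromosome 6, 27837880 to 27838375) was at 730, 775 and 756 RPKM untreated and at 473, 384 and 515 RPKM with UVA, a log2 change of -0.73 ± 0.08 (limma adjusted p = 0.00028). H2AC4 (ENSG00000278463) was at 2651, 2648 and 2594 RPKM untreated and at 1702, 1569 and 1778 RPKM with UVA, a log2 change of -0.65 ± 0.07. H2BC11 (ENSG00000124635) was at 1180, 1207 and 1210 RPKM untreated and at 835, 742 and 750 RPKM with UVA, a log2 change of -0.63 ± 0.06. These replicates lay close together within each group and far apart between them. H2BC18 (ENSG00000203814) stood at 180, 198 and 207 against 110, 128 and 140 RPKM, and H2BC8 (ENSG00000273802) fell by 0.56 ± 0.06. H2BC10 (ENSG00000278588) fell by 0.49 ± 0.05. H2AC25, H2AC6, H2AC11 and H2AC7 (ENSG00000181218, ENSG00000180573, ENSG00000196787 and ENSG00000196866) fell by 0.58, 0.51, 0.51 and 0.50. Of 13 H2A genes tested 11 fell, and of 18 H2B genes 13.

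H3 and H4, which form the core tetramer, and the linker histone H1 fell as well. H3C2 (ENSG00000286522, chromosome 6, 26031589 to 26032099) had the highest level of all falling genes, 10792, 11140 and 10875 RPKM untreated and 9004, 8890 and 9216 RPKM with UVA. Its log2 change was -0.28 ± 0.04 (limma adjusted p = 0.0016), and 0 with quantile normalisation. H4C9 (ENSG00000276180) was at 3223, 3220 and 3061 RPKM untreated and at 2170, 2063 and 2020 RPKM with UVA (log2 change -0.60 ± 0.05). H1-3 (ENSG00000124575) was at 2574, 2605 and 2516 RPKM untreated and at 1981, 1827 and 1657 RPKM with UVA (log2 change -0.50 ± 0.07). The libraries of both groups were well apart in each of these genes. H3C8 (ENSG00000273983) and H4C2 (ENSG00000278705) fell by 0.52 and 0.50. Of 10 H3 genes tested 6 fell, of 11 H4 genes 7, and of 4 linker histone genes 3.

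Copies of 1 histone class share nearly identical coding sequence, so short footprints may be assigned to the wrong copy, and the rule used for such reads is not given in the sources used here. Sums over a class do not depend on that assignment between listed copies. All 5 summed classes held a smaller share of the reads in every UVA library than in any untreated one. H2A took 1.52% ± 0.0038 (SD, n = 3) of reads in untreated and 1.10% ± 0.044 (SD, n = 3) in UVA libraries, and H2B 1.43% ± 0.0024 (SD, n = 3) against 1.05% ± 0.020 (SD, n = 3). H3 took 1.36% against 1.05%, H4 1.45% against 1.17% and H1 1.45% against 1.16%. All 66 genes together took 7.21% ± 0.037 (SD, n = 3) of reads in untreated and 5.53% ± 0.13 (SD, n = 3) in UVA libraries. These sums are a description, given no test for the reason above.

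**Figure D2:**
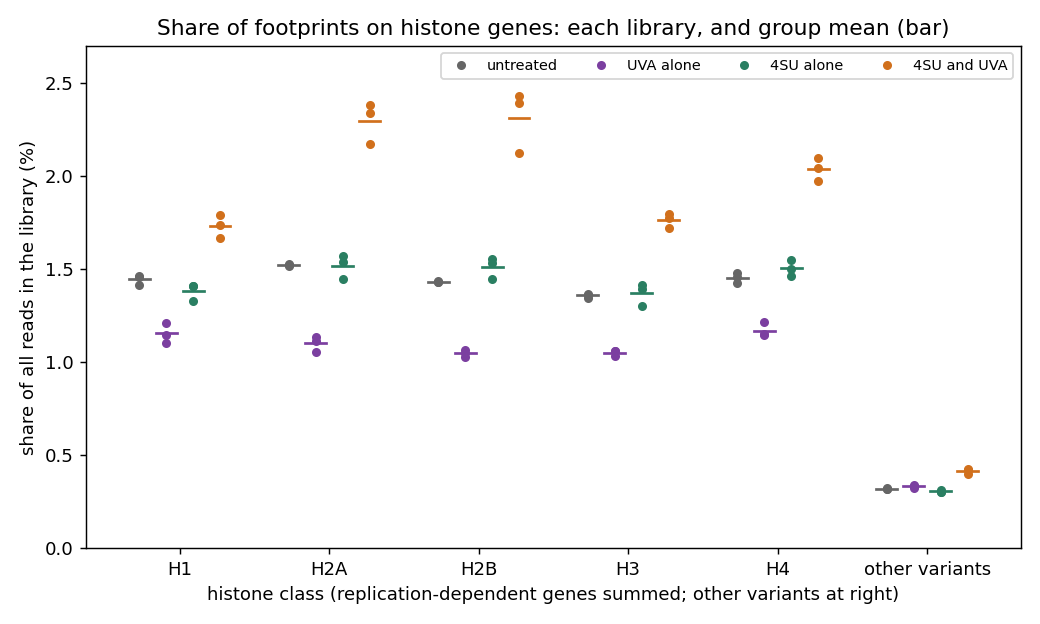
Share of all reads on the replication-dependent genes of each histone class, and on other histone variants, in the 4 groups. Points are libraries, bars are group means of 3 libraries, and the vertical axis starts at 0. Each class is lowest with UVA alone and highest with 4SU and UVA, while other variants lie between 0.304 and 0.338% in all groups but the last.

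The other histone genes were not called. Of 9 tested 0 passed in limma at adjusted p under 0.05, with a median log2 change of 0.07; they are mostly variants made outside S phase, with H2AX and with H3-4, which lies near H2AC25 on chromosome 1. H2AX (ENSG00000188486), the variant that marks broken DNA, was at 449, 461 and 470 RPKM untreated and at 441, 425 and 468 RPKM with UVA, which overlap. The summed share of all 11 listed was 0.320% ± 0.0030 (SD, n = 3) in untreated and 0.332% ± 0.0064 (SD, n = 3) in UVA libraries. Short mRNAs with dense footprints were also set side by side. Among genes with a transcript under 1500 nt and a mean above 500 RPKM, bounds set after the data had been seen, 35 of 36 replication-dependent histones fell. Of the 87 other such genes 1 fell and their median log2 change was -0.02. The one that fell is ENSG00000282988, left unnamed here, at 4493, 4457 and 4552 RPKM untreated and 3490, 3263 and 3400 RPKM with UVA. What it encodes was not worked out, so it stands among the other genes only for want of a symbol.

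**Figure D3:**
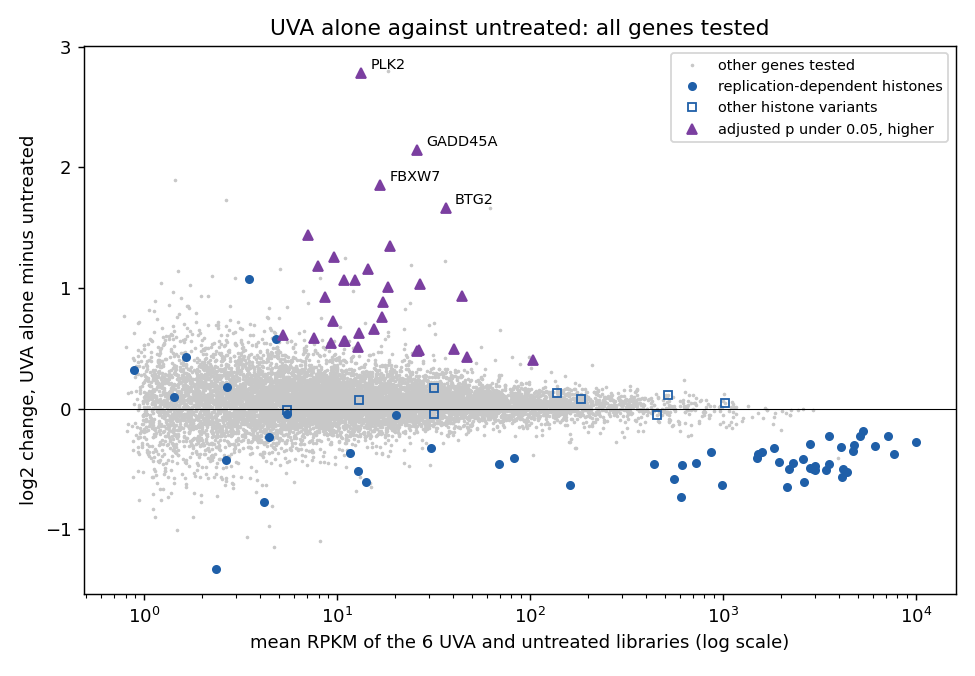
Log2 change with UVA alone against the mean RPKM of the 6 libraries (log scale) for the 10977 genes tested, 1 point per gene. Filled circles are replication-dependent histones, open squares other histone variants and triangles genes that rose. The histones at 50 RPKM or more all lie below 0, with a median of -0.45 on the deposited scale, although 5 of the falling ones move above 0 with quantile normalisation.

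Ribosomal protein genes, also short and abundant, mostly lay slightly lower with UVA, though none passed singly. Of 46 genes of the large and 32 of the small subunit 0 were called by limma at adjusted p under 0.05, with medians of -0.09 and -0.10. The log2 change was below 0 for 38 of the 46 and 28 of the 32, against 3800 of all 10977 genes; it was below 0 for 43 and 30 with median centring and for 35 and 23 with quantile normalisation, where 1 gene passed in each. At 13 and 11 of them the UVA libraries lay wholly below the untreated ones, against 4.0% of all genes. Of 17 other mRNAs with a terminal oligopyrimidine tract 0 were called, with a median of -0.06. Of 36 other short abundant proteins the 2 that fell were the linker histones H1-2 and H1-4. The labels name the molecule as polyA RNA, while the extraction they describe goes through pelleted ribosomes and names no poly(A) selection.

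Only 2 named genes that fell encode no histone. PCDH18 (ENSG00000189184), a cell-adhesion protocadherin, was at 20.7, 17.4 and 16.8 RPKM untreated and at 10.6, 10.3 and 13.6 RPKM with UVA (log2 change -0.65 ± 0.13, limma adjusted p = 0.029). DLX5 (ENSG00000105880), a homeobox factor of bone development, was at 34.4, 33.0 and 38.5 RPKM untreated and at 23.3, 26.1 and 26.8 RPKM with UVA (log2 change -0.47 ± 0.10, limma adjusted p = 0.038). In both genes all UVA libraries lay below all untreated ones.

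Whether the same genes respond to UVA in cells that carry 4SU was read from the other 6 libraries, which share none with the comparison above. With 4SU, UVA raised 24.9% and lowered 19.9% of the 10977 genes in limma. The interaction, the UVA effect with 4SU minus that without it, passed in limma at adjusted p under 0.05 above 0 for 11% of the genes and below 0 for 14.9%. It uses all 12 libraries and subtracts the change by which the 31 and 43 genes were chosen, so it leans below 0 for the former and above 0 for the latter by that choice. Against these shares, 24 of the 31 genes that rose with UVA alone also rose with UVA in the presence of 4SU, and NFKBIA fell. The median log2 change of the 31 was 0.84 with 4SU and 0.89 without it. PLK2 was at 12.2, 17.4 and 14.6 RPKM with both agents against 3.78, 3.55 and 3.42 RPKM with 4SU alone, a log2 change of 1.89. GADD45A was at 60.8, 74.2 and 66.4 RPKM with both agents, above every library of UVA alone, and changed by 2.99. The interaction did not pass in limma for PLK2 (adjusted p = 0.079) or GADD45A (adjusted p = 0.15).

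For 7 of the 31 rising genes the interaction passed. The UVA effect was larger with 4SU for KLF2, ATF3, FTH1 and AEN. KLF2 stood at 19.2, 20.7 and 17.1 RPKM with both agents, and its change was 1.53 with 4SU against 0.58 without. The effect was smaller or turned for EFHD1, CLP1 and NFKBIA. NFKBIA was at 31.5, 30.7 and 27.6 RPKM with both agents and at 36.3, 39.9 and 35.5 RPKM with 4SU alone, a log2 change of -0.31 with 4SU against 0.50 without. Of the 29 immediate early genes tested, 10 had an interaction above 0 that passed and 0 one below 0, with a median of 0.28. EGR1 reached 179, 318 and 318 RPKM with both agents, and JUN 251, 379 and 418 RPKM, with interactions of 5.74 and 4.97. CCN2, a matrix protein gene of the same list that UVA alone left at a limma adjusted p of 0.051, had an interaction of 0.02.

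The falling genes went the other way. Of the 43, 39 rose with UVA in the presence of 4SU and 1, PCDH18, fell; the interaction, which that choice pushes up, was above 0 and passed for 42. Their median log2 change was 0.49 with 4SU and -0.46 without it, with an interaction of 0.95. With quantile normalisation 16 of the 43 rose with 4SU and 23 had an interaction above 0. H2AC15 stood at 1218, 1251 and 1315 RPKM with both agents and at 758, 765 and 675 RPKM with 4SU alone. Over all 66 replication-dependent histones the share of reads was 7.29% ± 0.27 (SD, n = 3) with 4SU alone and 10.2% ± 0.43 (SD, n = 3) with both agents. The other histone genes, which UVA alone did not move past the threshold, rose at 7 of 9 genes with both agents. PCDH18 fell by 0.65 with UVA alone and by 0.64 with UVA and 4SU.

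**Figure D4:**
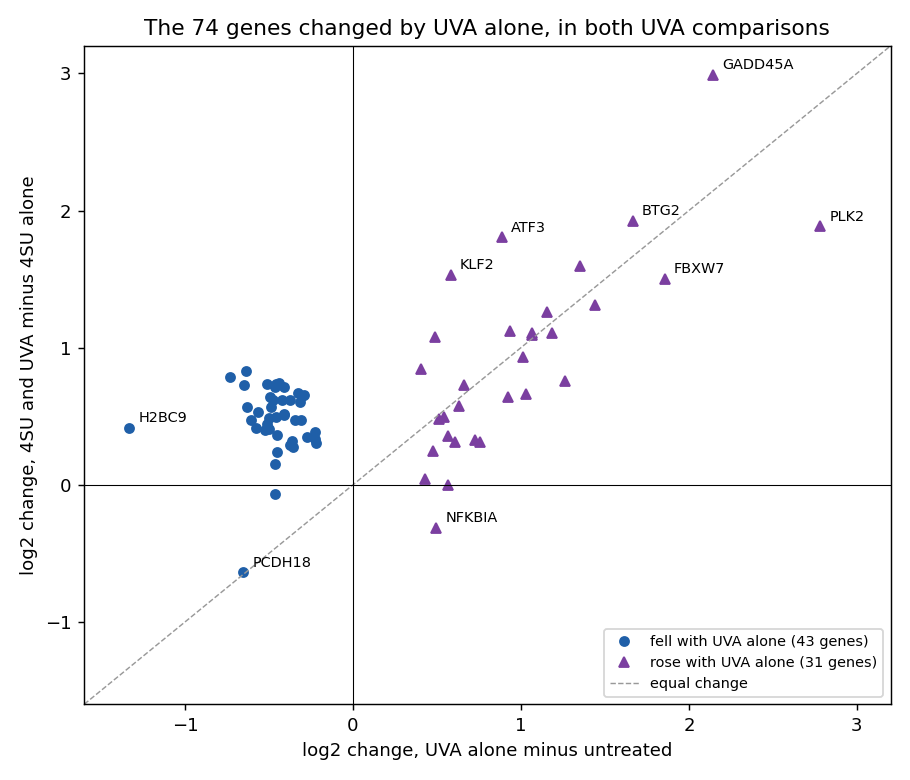
Log2 change of the 74 genes with UVA alone (horizontal) and with UVA in the presence of 4SU (vertical), with a dashed line of equal change. Genes that rose with UVA alone (triangles) lie on both sides of the line, 12 above and 19 below, with 24 of 31 rising in both. Those that fell (circles) lie mostly above 0 on the vertical axis, 39 of 43 past the threshold there (16 of 43 with quantile normalisation).

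4SU alone shares the untreated libraries with the main comparison, so its values are given side by side only. It raised 11.8% and lowered 3.33% of all genes tested. Of the 31 genes that rose with UVA alone 8 were also higher with 4SU alone, and the median change with 4SU alone over all 31 was 0.16. PDXP changed by 1.44, PIP4P1 by 0.81, A4GALT by 0.79, AKT2 by 0.56 and FTH1 by 0.53, each more than with UVA alone. BTG1 changed by 0.54, SLC30A1 by 0.49 and EFHD1 by 0.35, each less than with UVA alone. H2AC20 was the 1 falling gene that was also lower with 4SU alone, and the median over the 43 was 0.03.

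The deposited values are shares of each library's reads, so a scaling that sets the typical gene level shifts the balance of calls. Centring each library on its median gene gave 21 rises and 46 falls. Quantile normalisation gave 23 and 20. Rises were then 31.3% and 53.5% of the calls against 41.9% on the deposited scale.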

How the data were processed

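The authors deposited 1 table of RPKM values, that is reads relative to gene length and depth, for 12 ribosome footprint libraries of HAP1 cells. Per the submitters' processing notes, alignment to hg38 used STAR 2.7.10a; how reads were counted, or placed where they match several genes, is not given in the sources used here. Since an RPKM value moves in steps of 1 read, totals, lengths and reads could be worked out for all 15937 genes with a read; in each of 5 simulated tables all 12 totals and at least 99.84% of lengths came back.

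Values were transformed as log2(RPKM + 0.5), a scale that understates changes of low genes. One limma 3.58.1 model (R 4.3.3; lmFit and trended eBayes) fitted 4 group means over 12 libraries, with 8 residual degrees of freedom. P-values are two-sided, adjusted by Benjamini-Hochberg over 10977 genes, with 0.05 as threshold. On simulated data for UVA against untreated, with 10977 genes, the model found changes at rates of 53% (1.5-fold), 86.5% (2-fold) and 98.5% (4-fold). PCR reads without molecular identifiers are not independent molecules, so read counts carry more error than counting alone.

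The genes given with values are the 15 largest rises and 15 largest falls with a mean of at least 5 RPKM, listed genes that passed or had the lowest p, EGR1 and JUN; the other rising genes, FOS, CDKN1A, GDF15, CCN2, H4C3, H2BC9, H2AX, H3C2 and DLX5 were added after their values were seen. That rule took symbols from a reference table by Ensembl identifier. The table holds no such identifiers, so symbols were assigned from general knowledge, as the report states; 430 identifiers in the table carry one. Members and lists were chosen with earlier results of these data known, and 8 further lists were not run for want of identifiers.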

Additional observations from a re-analysis of the deposited data

Results flagged for a closer look

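The effect of UVA differed between cells with and without 4SU for 33 of the 65 genes given with values, by limma's interaction test at adjusted p under 0.05. The interaction is the log2 change with 4SU minus the log2 change without it, and so leans away from the change by which rising and falling genes were chosen. Among the replication-dependent histones, which fell with UVA alone, it was 1.52 for H2AC15, 1.47 for H2BC18, 1.38 for H2AC4, 1.24 for H2AC6, 1.19 for H2BC11, 1.14 for H2AC7, 1.10 for H2BC8, 1.08 for H4C9 and 1.05 for H2BC10. It was 0.99 for H2AC25, 0.98 for H1-3, 0.96 for H2AC11, 0.92 for H3C8 and 0.90 for H4C2. It was 1.75 for H2BC9 and 0.62 for H3C2, and 0.51 for H4C3, which had not passed with UVA alone. It was 0.92 for ENSG00000282988 and 0.62 for DLX5, which also fell, and 0.47 for H2AX. Among the rising genes it was 0.95 for KLF2, 0.92 for ATF3, 0.59 for FTH1 and 0.44 for AEN, and it was -0.81 for NFKBIA, -0.56 for EFHD1 and -0.39 for CLP1. Among the immediate early factors, which did not pass with UVA alone, it was 5.74 for EGR1, 4.97 for JUN and 3.54 for FOS. It was 1.65 for DUSP1, 0.83 for PPP1R15A and 0.77 for FTL. The 4SU and UVA libraries include the shallowest of the study, with 1899854 reads; leaving out any 1 library kept the interaction past the threshold for 42 of the 43 falling genes.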

How the results depend on the processing

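Of 720 recomputed changes of the 30 genes named by size (24 alternatives each), 683 stayed past the threshold, 37 kept their direction without passing and 0 reversed; 18 of the 30 genes passed under all 24. Quantile normalisation turned 6 smaller falls positive: 0.027 for H1-4, 0.042 for H2BC12, 0.050 for H4C5, 0.11 for H4C1, 0.13 for H2AC8 and 0.040 for ENSG00000282988. Quantile normalisation assigns libraries equal values at equal rank, and the cause of these turns was not tested. Under it 20 genes fell, 18 of them cluster histones, 16 fallers rose with UVA and 4SU, 23 fallers had a positive interaction and 31 interactions passed among the 74 genes. Without a variance trend 15 rose and 22 fell (21 cluster histones, 5 immediate early genes), with no filter 17 rose (5 immediate early), and with voom on recovered reads 54 rose. The p53 target and repair genes that rose, 1 on the deposited scale, were 0 without a variance trend, 2 from the 6 libraries only, 3 with the replicate block, 5 with both and 6 with voom. With median centring 14 of the 74 passed for 4SU alone, against 9 on the deposited scale. The cause of the other differences was not tested either. The settings for the gene groups and most of those for the comparisons with 4SU were chosen after seeing the data.

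Leaving out 1 library at a time gave 15 to 38 rises, 34 to 44 falls, 33 to 40 cluster histones, 4 to 9 immediate early genes, 1 to 3 p53 target and repair genes, 64 to 66 of the 74 genes past the threshold for UVA with 4SU (39 to 39 fallers and 23 to 25 risers higher), 48 to 50 interactions, and 5 to 12 for 4SU alone, the 5 without 4SU replicate 2.

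Over all genes tested, same-numbered UVA and untreated libraries correlated at only 0.05, -0.02 and 0.07 in their deviations from group means. That correlation cannot decide whether replicates of 1 number share an effect at the rising genes. Among those 31, replicate 3 was the lowest library of its group for 17 genes in untreated, 23 in UVA and 19 in 4SU libraries. With both agents it was the lowest for 10, and replicate 1 for 17. Pairing at these genes was not tested. With the replicate number as a block 33 genes rose, 25 of them among the 31, and 43 fell. CDKN1A, GDF15, BBC3 and CCN2 passed with the block (adjusted p 0.012, 0.0066, 0.0081 and 0.0039 in limma). H2BC9 rests on 8 reads in the UVA libraries and did not pass with voom on recovered reads or without untreated replicate 1 or UVA replicate 1 or 3.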
